A study of Mus musculus with 6 samples.

Results

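The tumor suppressor p53, encoded by Trp53, was examined together with 9 genes that it induces or that control it, namely Mdm2, Mdm4, Ccng1, Trp53inp1, Zmat3, Phlda3, Ptprv, Sesn1 and Aen. These 10 genes were taken by symbol from a table of 27179 genes, and all 10 passed the filter on low counts that left 14855 genes for testing. They were chosen from measured values of the comparison described here, CD34 negative against CD34 positive cancer-associated fibroblasts (CAFs). Their levels and fold changes between these groups are therefore a description, given with no test.

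p53 is a transcription factor that is held at a low level by Mdm2, a ubiquitin ligase that marks it for destruction, and by Mdm4, a related protein that binds and inhibits it. Under DNA damage, oncogene activity or other stress, p53 protein is stabilized and modified, mostly without a change in its own mRNA, and induces genes that halt the cell cycle, repair DNA or kill the cell. Several of these targets, Mdm2 first among them, act back on p53 and limit the response. In fibroblasts, p53 is best known for the arrest that accompanies senescence.

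The CAFs came from 3 mammary tumors of female raGFP-Wnt1 mice. These mice carried an MMTV-Wnt1 transgene, in which the MMTV promoter drives Wnt1 in the mammary epithelium, and a Pdgfra reporter allele that labels the nuclei of fibroblasts with GFP, on a mixed background of FVB/NJ and C57BL/6. The age of the mice was not given, and nothing in the labels describes a change to Trp53 or its targets. GFP positive cells were sorted by flow cytometry into a CD34 negative and a CD34 positive fraction of each tumor, also called CD34-low and CD34-high by the submitters, which gave 6 libraries, 3 per group. Libraries are named by their fraction and tumor number, as in negative library 1.

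The libraries held between 16238059 and 86609267 counts. Cd34 itself lay between 42.0 and 102 CPM (counts scaled by library size and composition) in the negative libraries and between 563 and 1605 CPM in the positive libraries, so the label of each library and its Cd34 level went the same way. Negative library 3 had counts for the fewest genes, 14314, against 16253 to 19220 in the others. Fold changes without tumor 3 are therefore also given for Mdm2, Ptprv, Trp53inp1 and Ccng1. The members were well covered, with between 247 and 20899 counts per library. Because these are bulk samples, fewer cells of one kind and less RNA per cell cannot be told apart.

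Trp53, on chromosome 11 (69580348 to 69591873, build GRCm38), had nearly the same mRNA level in both fractions. It measured 35.4, 33.1 and 33.7 CPM in negative libraries 1, 2 and 3 and 29.0, 32.8 and 35.6 CPM in positive libraries 1, 2 and 3. The groups overlapped, and the CD34 negative library was the higher one in 2 of 3 tumors. The log2 fold change, CD34 negative over CD34 positive, was 0.06 ± 0.17 (standard error, SE, from limma-voom). Other fold changes came from the same fit, without the tumor as a blocking term, unless stated. The within-tumor log2 ratios ran from -0.08 in tumor 3 to 0.29 in tumor 1.

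Mdm2, on chromosome 10 (117688875 to 117710758), is both a target of p53 and its main inhibitor. It measured 372, 355 and 533 CPM in negative libraries 1, 2 and 3, against 192, 189 and 110 CPM in the positive libraries. Every negative library lay above every positive one. The log2 fold change was 1.40 ± 0.28, which is 2.64-fold, and without tumor 3, whose own log2 ratio was 2.28, it was 0.91. The ratio was 0.95 in tumor 1 and 0.91 in tumor 2.

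Mdm4, on chromosome 1 (132986105 to 133030587), has the p53-binding fold of Mdm2 but little ligase activity of its own. Its levels were 44.2, 40.8 and 71.8 CPM in the negative libraries and 46.3, 33.2 and 54.5 CPM in the positive libraries, so the groups overlapped. Its log2 fold change was 0.24 ± 0.28, and it was -0.02 when either negative library 3 or positive library 2 was left out. Tumor 3 had the highest Mdm4 level in both fractions. Gm29257 and Gm41953, which overlap Mdm4, were not analysed here.

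Set against each other within a library, and per length, the 3 genes of this core loop showed the difference between Mdm2 and Mdm4 directly. The level of Mdm2 per kilobase was 6.48, 6.62 and 9.76 times that of Trp53 in the negative libraries and 4.09, 3.57 and 1.90 times in the positive libraries. Mdm2 over Mdm4 was 9.71, 10.0 and 8.57 in the negative libraries and 4.79, 6.57 and 2.32 in the positive libraries. The ratio of Mdm4 to Trp53 overlapped, at 0.822 ± 0.275 (SD, n = 3) in the negative and 0.739 ± 0.170 in the positive libraries. These ratios need no scaling between libraries.

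**Figure D1:**
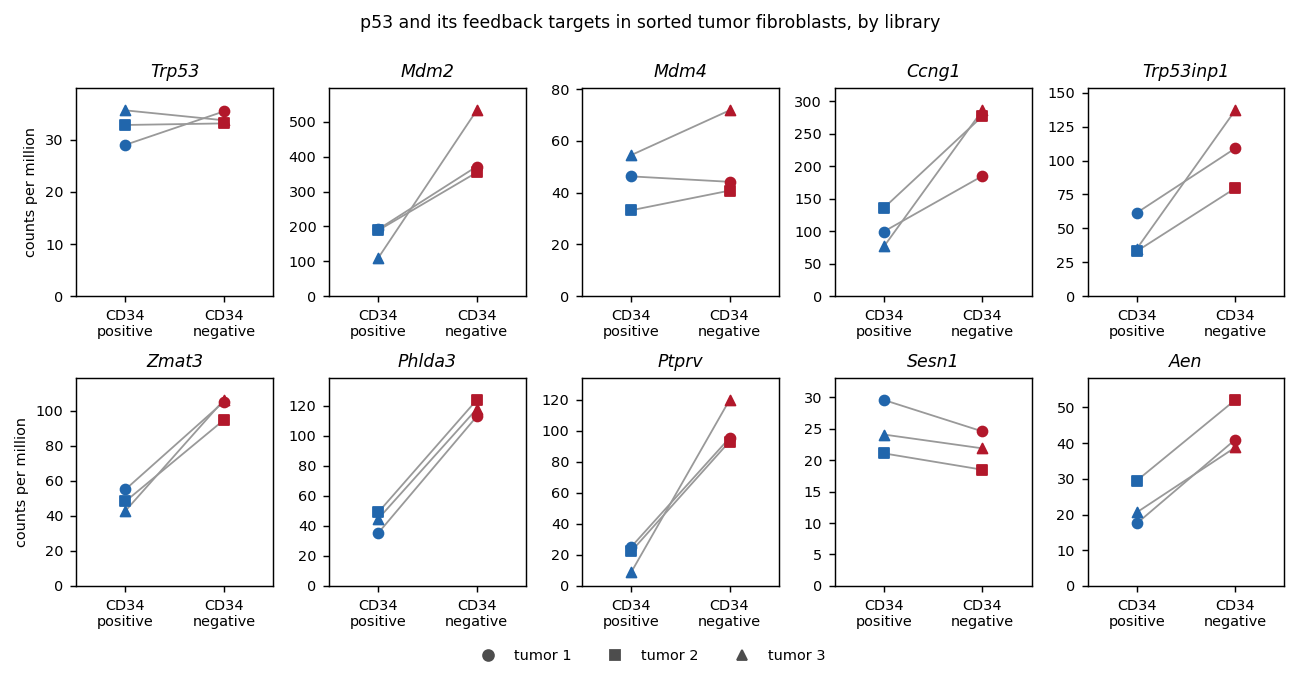
Level of each of the 10 genes in CPM (vertical axis, from 0) in CD34 positive (blue) and CD34 negative (red) libraries, with a line joining the 2 libraries of a tumor and a marker shape per tumor. Trp53, Mdm4 and Sesn1 overlap between the fractions, and the other 7 genes are higher in all 3 negative libraries than in any positive library.

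The gene with the largest difference among the members was Ptprv, on chromosome 1 (135108498 to 135132575). Ptprv is a receptor-like tyrosine phosphatase gene known as a p53 target in the mouse, where it contributes to cell cycle arrest. The count table lists it as protein-coding and RefSeq as a transcribed pseudogene. It measured 95.5, 93.2 and 120 CPM in the negative libraries and 25.1, 22.2 and 8.71 CPM in the positive libraries. The log2 fold change was 2.55 ± 0.33 (5.88-fold), and 2.01 without tumor 3, in which the ratio reached 3.79. Ptprv overlaps Ptpn7, which held 59 counts over all libraries against 16503 for Ptprv.

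Phlda3, on chromosome 1 (135766085 to 135769134), encodes a small pleckstrin homology protein that competes with Akt for membrane lipids and so dampens survival signaling. It measured 113, 124 and 118 CPM in the negative libraries and 35.3, 49.1 and 44.8 CPM in the positive libraries. Its log2 fold change was 1.43 ± 0.18, and its ratios, 1.67, 1.34 and 1.40 in tumors 1, 2 and 3, were the most even among the 7 members whose groups did not overlap, with an SD of 0.18.

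Trp53inp1, on chromosome 4 (11156441 to 11174379), encodes a nuclear and autophagy protein that promotes p53 phosphorylation. It measured 109, 79.6 and 137 CPM in the negative libraries and 61.5, 33.2 and 35 CPM in the positive libraries. Its log2 fold change was 1.43 ± 0.28, and 1.09 without tumor 3, with ratios of 0.82, 1.26 and 1.97 in tumors 1, 2 and 3. All 3 tumors had the higher level in the negative fraction.

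Ccng1 encodes cyclin G1, which recruits the phosphatase PP2A to Mdm2 and favors the loss of p53. It lies on chromosome 11 (40748552 to 40755309), minus strand. Ccng1 measured 185, 277 and 286 CPM in the negative libraries and 99.6, 136 and 76.6 CPM in the positive libraries. The groups did not overlap, the log2 fold change was 1.29 ± 0.26, and tumor 3 again had the widest ratio, 1.90, against 0.89 and 1.03 in tumors 1 and 2. Without tumor 3 the log2 fold change was 0.96.

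Zmat3, on chromosome 3 (32334792 to 32365665), encodes a zinc finger protein that binds RNA and regulates splicing. It measured 105, 94.6 and 106 CPM in the negative libraries and 55, 48.2 and 42.8 CPM in the positive libraries, so that the lowest negative library was well above the highest positive one. The log2 fold change was 1.09 ± 0.17. The overlapping gene 4930429B21Rik held 74 counts over all libraries against 20238 for Zmat3.

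Aen, on chromosome 7 (78895927 to 78911209), encodes an exonuclease that takes part in p53-driven apoptosis. It measured 41.0, 52.1 and 38.8 CPM in the negative libraries and 17.5, 29.5 and 20.6 CPM in the positive libraries. The groups did not overlap, and the log2 fold change was 0.86 ± 0.24, the smallest of the 7 members with separate groups. It was 1.17 without positive library 2, the highest of the positive libraries.

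Sesn1, on chromosome 10 (41810574 to 41908436), is a p53 target that restrains mTORC1 when amino acids or redox balance fail. Unlike those 7 genes it was slightly lower in the negative fraction of every tumor. It measured 24.6, 18.5 and 21.9 CPM in the negative libraries and 29.6, 21.1 and 24.1 CPM in the positive libraries, and the groups overlapped. The log2 fold change was -0.12 ± 0.21, and the ratios were -0.27, -0.19 and -0.14 in tumors 1, 2 and 3.

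Across the whole set, 7 of 10 members had all 3 negative libraries above all 3 positive libraries and 0 had the reverse. Over all genes tested, 10.4% had the first order and 10.0% the second. At an adjusted p of 0.05, limma-voom called 2 members higher in CD34 negative CAFs (Phlda3 and Ptprv, where 0.0202% of all genes were called higher and 0.101% lower) and, with the tumor as a block, 7 (where 4.32% were called higher and 4.25% lower). Since the members were chosen on this comparison, nothing is read from these counts. The median log2 fold change of the members was 1.19, against -0.03 over all genes tested.

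Per length, in RPKM (CPM divided by gene length in kilobases), the order of the members differed between the fractions. Mdm2 ranked first in both, at 139 ± 32.5 RPKM (SD, n = 3) in the negative and 54.1 ± 15.5 RPKM in the positive libraries. In the negative libraries Phlda3 (80.6 ± 3.87 RPKM) and Ccng1 (71.5 ± 16 RPKM) followed and overlapped each other, and neither overlapped Mdm2 or the genes below. The next 6, Trp53inp1, Trp53, Aen, Ptprv, Mdm4 and Zmat3, lay between 20 and 13.1 RPKM, each overlapping its neighbor in the order, and Sesn1 was last at 6.49 ± 0.912 RPKM.

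In the positive libraries the ranges of Mdm2, Ccng1 (29.9 ± 8.61 RPKM) and Phlda3 (29.4 ± 4.83 RPKM) each overlapped the next. Below a gap came Trp53 at 17.4 ± 1.76 RPKM, then Mdm4, Aen, Trp53inp1, Sesn1 and Zmat3 between 12.8 and 6.25 RPKM, with every neighbor overlapping. Ptprv stood alone at the bottom at 3.07 ± 1.44 RPKM. Trp53 thus had 3 members above it in CD34 positive CAFs and 4 in CD34 negative CAFs, where its own level was 18.2 ± 0.653 RPKM.

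**Figure D2:**
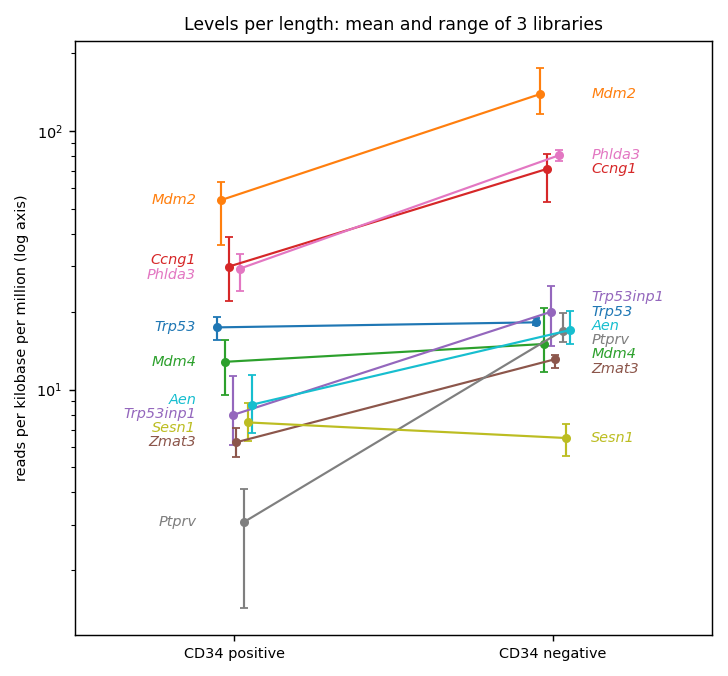
Mean level per gene length in RPKM (vertical log axis) of the 10 genes in CD34 positive (left) and CD34 negative (right) CAFs, with bars for the range of 3 libraries. Mdm2 is first in both fractions at 54.1 and 139, Ptprv moves from last at 3.07 to 16.9, and the lines of Trp53, Mdm4 and Sesn1 stay almost level.

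Promoter windows from RefSeq (GRCm38.p6), each running from 250 bases before to 50 after a start site, were found for 7 of the members and are shown because these genes are known for p53 binding nearby. They were searched for the 10-base p53 half-site consensus, which reads the same on both strands. A half-site was present in the windows of 5 of the 7 genes, Trp53, Mdm2, Ccng1, Sesn1 and Aen, against 9.55% of the 27025 genes with a window, and in none for Mdm4 and Phlda3. Of 31 other p53 targets with a window, 8 held a half-site (25.8%). The whole Ccng1 window (chr11:40755237-40755536, minus strand) is printed first, and then the stretches of 15 bases on each side of the half-sites, which are in capitals, in the windows of Mdm2 (chr10:117710709-117711008, minus strand), Trp53 (chr11:69580109-69580408, plus strand), Aen (chr7:78895808-78896107, plus strand), Sesn1 (chr10:41887189-41887488, plus strand) and, outside the members, Cdkn1a (chr17:29090729-29091028, plus strand):
Ccng1: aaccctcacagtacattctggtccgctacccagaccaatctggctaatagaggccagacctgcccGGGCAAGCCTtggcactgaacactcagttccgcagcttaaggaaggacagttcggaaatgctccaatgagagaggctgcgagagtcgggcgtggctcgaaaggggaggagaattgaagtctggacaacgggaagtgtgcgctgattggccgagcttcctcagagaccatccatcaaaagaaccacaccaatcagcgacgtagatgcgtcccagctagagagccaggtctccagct
Mdm2: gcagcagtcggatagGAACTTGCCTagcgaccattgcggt
Trp53: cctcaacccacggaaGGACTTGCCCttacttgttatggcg
Aen: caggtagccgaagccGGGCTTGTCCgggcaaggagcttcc
Sesn1: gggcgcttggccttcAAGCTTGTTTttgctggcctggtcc
Cdkn1a: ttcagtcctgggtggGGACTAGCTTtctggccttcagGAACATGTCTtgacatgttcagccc

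The half-sites began at -185 in Ccng1, -186 in Mdm2, -75 in Trp53, -121 in Aen and -173 in Sesn1, counted from the start site of the window given for each. Aen and Sesn1 each have a further window. From the other Aen start (78895927) the same half-site begins at 10, and the window at the other Sesn1 start (41810574) holds none. A pair of exact half-sites with at most 13 bases between them was in none of the members' windows and in 0.0740% of all genes, Cdkn1a among them. When 1 mismatch was allowed and no spacer, a choice made after seeing the data, Ccng1 was the only member with a 20-base match, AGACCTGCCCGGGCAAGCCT, against 0.107% of all genes. Cdkn1a held such a match too, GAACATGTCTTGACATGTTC. A match of letters is not evidence of binding, and the windows of Mdm4 and Phlda3 say only that these letters are not in these 300 bases.

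The other genes induced by p53 were taken as a list of 37, of which 36 were tested and Spata18 was too low. The list was drawn up with earlier results of these data known, so its counts are not an independent test. In limma-voom none passed an adjusted p of 0.05 without the block, where 11 were higher and 2 lower at an unadjusted p under 0.05. DESeq2 called 7 (4.70% of all genes) and edgeR called 0 (0.0606% of all genes). With the tumor as a block, which compares the 2 fractions within each tumor, 9 of 36 rose and 1 fell in CD34 negative CAFs, where 4.32% of all genes rose and 4.25% fell. The median log2 fold change without the block was 0.44, against -0.03 over all genes, and 28 of the 36 were above 0.

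Cdkn1a encodes p21, the inhibitor of cyclin-dependent kinases through which p53 stops the cell cycle. It measured 828, 587 and 816 CPM in the negative libraries and 369, 225 and 197 CPM in the positive libraries, with no overlap. Its log2 fold change was 1.51 ± 0.28, the limma-voom adjusted p was 0.0769, or 0.00143 under the block, and the ratios were 1.17, 1.38 and 2.05 in tumors 1, 2 and 3. Of the 7 arrest genes, the kinase gene Plk3 was the other one that rose with the block (0.91 ± 0.20, limma-voom adjusted p = 0.104 without and 0.00875 with it).

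Among 11 cell death genes, 4 rose with the block and the other 7 passed neither test. Pmaip1 and Bbc3, whose products Noxa and Puma unleash Bax at mitochondria, had blocked log2 fold changes of 1.79 ± 0.29 and 1.49 ± 0.37 (limma-voom with the block, adjusted p = 0.00681 and 0.0357). The TNF family receptor gene Eda2r had 1.36 ± 0.27 in the same fit (limma-voom adjusted p = 0.0152), and Bax itself 0.70 ± 0.17 (0.0330). In tumors 1, 2 and 3 the ratios were 1.26, 1.28 and 2.91 for Pmaip1 and 0.43, 1.42 and 2.23 for Eda2r. They were 1.69, 1.67 and 0.94 for Bbc3 and 0.40, 0.60 and 1.09 for Bax. Bbc3 lost its call without tumor 1, and both Bbc3 and Bax lost theirs without tumor 2. Bbc3 was low, at 9.72 ± 4.48 CPM (SD, n = 3) in the negative and 3.49 ± 1.13 CPM in the positive libraries.

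Of the 6 tested stress and metabolism genes, 2 rose with the block. Sesn2, the paralog of Sesn1 with the same role toward mTORC1, measured 40.5, 22.5 and 29.3 CPM in the negative libraries and 11.9, 8.99 and 8.93 CPM in the positive libraries. It rose with the block (limma-voom, log2 fold change 1.69 ± 0.30 without it, adjusted p = 0.0735 without and 0.00393 with it). Per length, Sesn2 stood at 2.07, 1.53 and 1.68 times Sesn1 in the negative libraries and at 0.505, 0.536 and 0.465 times in the positive libraries, so the order of the paralogs was opposite in the fractions.

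Ddit4, which encodes another mTORC1 inhibitor, rose as well (0.83 ± 0.20 with the block, limma-voom adjusted p = 0.0370). So did Polk, a polymerase for damaged DNA (1.04 ± 0.22 with the block, limma-voom adjusted p = 0.0205). Kitl, the gene of stem cell factor, fell with the block, with a log2 fold change of -0.91 ± 0.20 and a limma-voom adjusted p of 0.0243. All 3 genes had their widest log2 ratio in tumor 3. In tumors 1, 2 and 3 the ratios were 0.50, 0.54 and 1.55 for Ddit4 and 0.42, 0.92 and 1.57 for Polk. For Kitl they were -0.46, -0.81 and -1.63. Of the 10 calls, 8 also held in each of the 3 blocked fits that left out a tumor, and all 10 kept their direction.

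**Figure D3:**
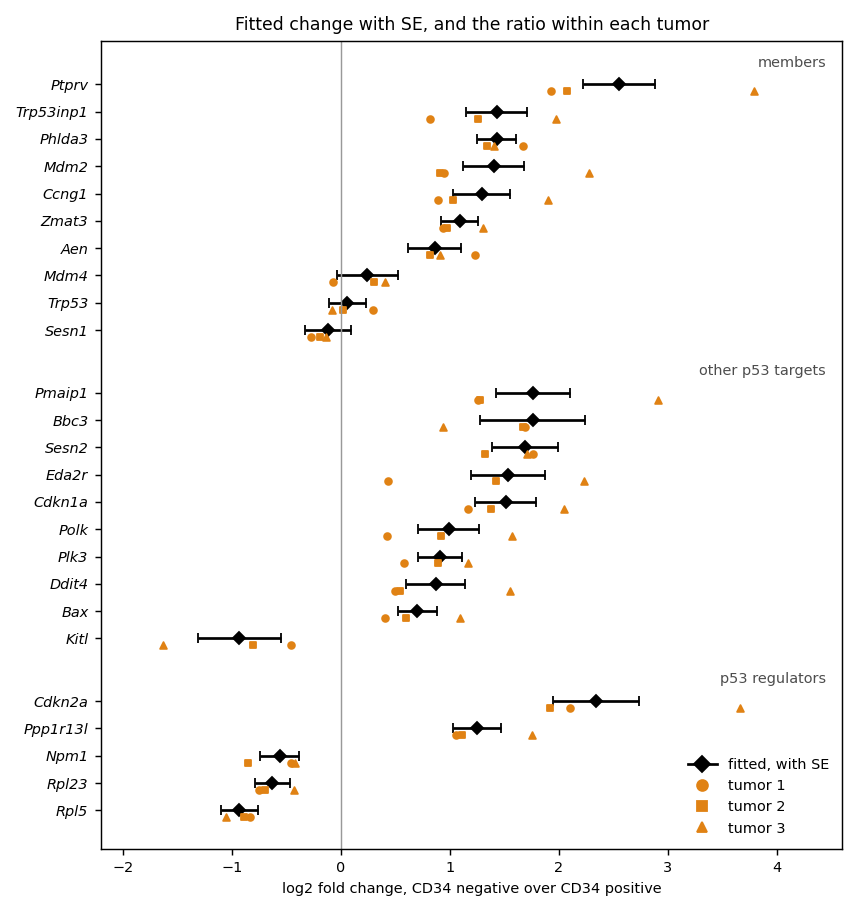
Log2 fold change of CD34 negative over CD34 positive CAFs (horizontal axis) for the 10 members and for the other p53 targets and regulators called with the tumor block. Black diamonds and bars are the fitted change and its SE, both without the block, and orange markers below them are the ratios within each tumor. Ptprv at 2.55 and Cdkn2a at 2.34 lie farthest to the right, and Trp53, Mdm4 and Sesn1 lie between -0.12 and 0.24.

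Regulators of p53 other than the members numbered 30, all tested. Without the block none passed in limma-voom, with 2 higher and 4 lower at an unadjusted p under 0.05, while DESeq2 called 4 and edgeR 0. With the block 2 rose and 3 fell, against 4.32% and 4.25% of all genes, and the median without it was -0.15. The median of all genes was -0.03, and 12 of the 30 regulators lay above 0, or 6 without positive library 2.

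Cdkn2a encodes p16 and, in another reading frame, p19Arf, which binds Mdm2 and frees p53, and counts per gene cannot separate the transcripts. It measured 58.6, 69.2 and 61.0 CPM in the negative libraries and 13.6, 18.3 and 4.80 CPM in the positive libraries. It rose with the block (log2 fold change 2.34 ± 0.39 without it, limma-voom adjusted p = 0.0735 without and 0.00233 with it). The ratios were 2.10, 1.92 and 3.66 in tumors 1, 2 and 3. Ppp1r13l encodes iASPP, an inhibitor that binds p53 directly, and it also rose (1.25 ± 0.22, limma-voom adjusted p = 0.0735 without and 0.00674 with the block), from 14.2 ± 1.98 CPM in the positive to 35.1 ± 4.88 CPM in the negative libraries (SD, n = 3).

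The other 4 Mdm2-binding genes on the list had log2 fold changes below 0. The ribosomal protein genes Rpl5 and Rpl23, whose free proteins bind Mdm2, fell with blocked log2 fold changes of -0.92 ± 0.13 and -0.63 ± 0.14 (limma-voom with the block, adjusted p = 0.00337 and 0.0243). Npm1, a nucleolar protein gene, had -0.58 ± 0.14 in the same fit (limma-voom adjusted p = 0.0302), and Rpl11, at -0.52 ± 0.16, did not pass. Rpl23 lost its call without tumor 1, and Npm1 and Rpl23 lost theirs without tumor 2. Ribosomal protein genes have many near-identical pseudogenes, so their counts are uncertain where reads match several places.

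No gene passed in the other groups of regulators, with or without the block, in limma-voom, edgeR or DESeq2, and none had an unadjusted p under 0.05 in the 6 damage kinases (Atm, Atr, Chek1, Chek2, Prkdc and Hipk2), the 9 acetylation and methylation genes or the 6 ubiquitin genes. The medians of these groups without the block were -0.39, 0.0011 and -0.01.

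Of 14 paralogs of the members, 11 were tested, and Trp73, Zmat4 and Phlda2 were too low, at 0.6 CPM or less in every library. None passed without the block in limma-voom (2 higher at an unadjusted p under 0.05) or in edgeR, and DESeq2 called 2. With the block, where 4.32% of all genes rose, Sesn2 and Trp53inp2 did so, the latter with a blocked log2 fold change of 0.79 ± 0.19 (limma-voom adjusted p = 0.0347). Trp53inp2, an autophagy gene, measured 104 ± 25.7 CPM in the negative and 59.8 ± 8.84 CPM in the positive libraries (SD, n = 3). Its log2 ratios were 0.41, 0.54 and 1.39 in tumors 1, 2 and 3.

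The paralogs of the remaining members did not pass. Ccng2, the partner of Ccng1, had a log2 fold change of 0.14 ± 0.28. Phlda1 had -0.55 ± 0.38, the opposite sign to Phlda3, and Trp63 had -1.05 ± 0.94 at a level of 1.65 CPM or less in group mean. Sesn3 had 0.57 ± 0.28 and Isg20 and Isg20l2, relatives of Aen, 0.52 ± 0.23 and 0.01 ± 0.26. Zmat1, Zmat2 and Zmat5 had 0.21 ± 0.43, -0.003 ± 0.21 and -0.02 ± 0.30, each within its SE of 0, and the signs of these 3, and of Trp63, Ccng2 and Isg20l2, turned under other settings.

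Through p21 and the DREAM complex, p53 lowers genes of mitosis, and 14 of these were tested. Their median log2 fold change was -2.88 without the block and all 14 were below 0. Without positive library 2 the median was -1.32, with 12 of 14 below 0, and in limma-voom none of the 14 then had an unadjusted p under 0.05. Without negative library 3 the median was -2.25, with all 14 below 0. That library had no count for Cdk1, Cdc25c and Aurka and a count of 1 for each of Plk1, Bub1 and Kif23. In limma-voom without the block none passed, with 8 lower at an unadjusted p under 0.05, and neither edgeR nor DESeq2 called any. With the block 5 fell, against 4.25% of all genes. Top2a measured 2.33, 21.2 and 6.41 CPM in the negative libraries and 14.4, 106 and 14.9 CPM in the positive libraries, so the groups overlapped although the negative library was lower within each tumor. The negative library was lower within each tumor for 12 of the 14 genes, but 0 of the 14 had separate groups in either direction. Over all genes tested, 10.4% had all 3 negative libraries above all 3 positive ones and 10.0% had them below. The regulators Mybl2 and Foxm1 were higher in the negative library of tumors 1 and 3, with log2 ratios of 0.73, -1.43 and 0.12 for Mybl2 and 0.03, -1.49 and 0.60 for Foxm1 in tumors 1, 2 and 3.

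The fitted changes of these genes depended on the block. For Top2a the log2 fold change was -2.57 ± 1.07 without and -2.16 with it, and the limma-voom adjusted p was 0.329 and 0.00164. Ccna2 went from -2.82 to -2.28, Ccnb2 from -1.85 to -1.30, Birc5 from -2.55 to -1.84 and Cdk1, which had no count in negative library 3, from -3.85 to -1.84. In blocked fits the number that fell was 4 of 14 without tumor 1, 1 of the 13 tested without tumor 2 and 13 of 14 without tumor 3. In the blocked fit without tumor 2, 2 of the 13 lay above 0. Levels also differed between tumors, with 3 of the 14 genes past the limma-voom F test for tumor (4.03% of all genes) and 11 at an unadjusted p under 0.05.

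**Figure D4:**
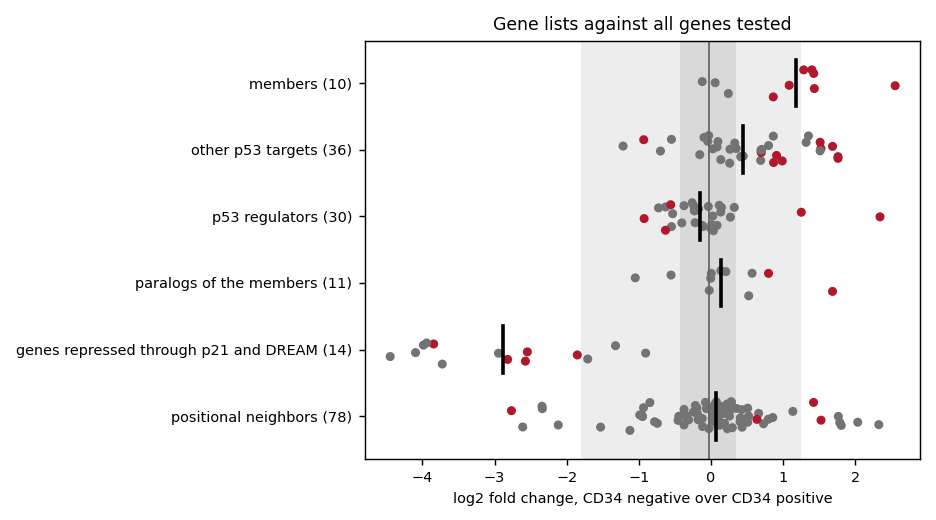
Log2 fold change without the block of each tested gene (points) in the members and in 5 related lists, with the number tested in parentheses and a black bar at each median. Red points were called with the tumor block. For the members that is the comparison that chose them, so their color is not a test result. The gray bands hold the middle 50% and 90% of all genes tested, centered on -0.03.

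Ptprv and Phlda3 lie 634 kb apart on chromosome 1, with Mdm4 a further 2.08 Mb away on the other side of Ptprv. Of the 9 tested genes between Ptprv and Phlda3, none passed without or with the block in limma-voom or edgeR or without the block in DESeq2, and DESeq2 with the block called 1. At an unadjusted p under 0.05, limma-voom had 1 higher without the block, and 2 with it. Their log2 fold changes ran from -0.35 for Timm17a to 0.79 for Shisa4, with a median of 0.26, all below the 2.55 and 1.43 of the members at the ends.

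Within 250 kb of any member, or between Ptprv and Phlda3, 78 other genes were tested. None passed without the block in limma-voom (5 higher and 2 lower at an unadjusted p under 0.05) or edgeR, and DESeq2 called 1. With the block 3 of the 78 rose and 1 fell, no larger a share than the 4.32% and 4.25% of all genes. Mfge8 near Aen rose (1.42 ± 0.32 without the block, 1.42 with it, limma-voom adjusted p with it = 0.00104). So did, in the same order of values, Chrnb1 near Trp53 (1.53 ± 0.40, 1.41, 0.0216) and Tmem9 near Phlda3 (0.64 ± 0.22, 0.59, 0.0416). Hmmr, a mitotic gene near Ccng1, fell (-2.77 ± 1.25 without the block, -1.94 with it, limma-voom adjusted p = 0.0133). Tmem9 lost its call without tumor 1, and Tmem9, Chrnb1 and Hmmr without tumor 2. The median of the 78 was 0.08.

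**Figure D5:**
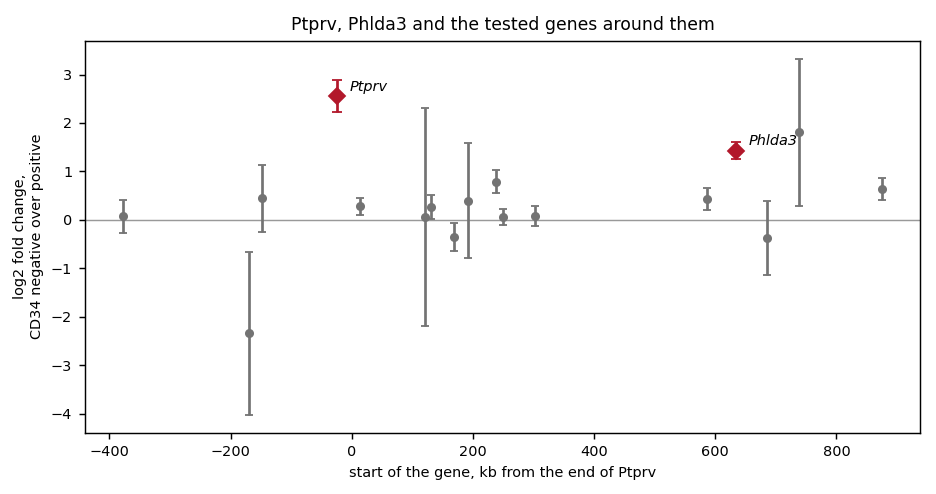
Log2 fold change with its SE (vertical axis) of Ptprv and Phlda3 (red) and the other tested genes around them (gray), placed by the distance of the gene's start from the end of Ptprv in kb. The 9 genes between the members lie from -0.35 to 0.79, and bars are wide where counts are low.

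The genes whose pattern over the 6 libraries was most like the mean of the 9 members other than Trp53 were found by the root mean square difference of centered log2 CPM, among the 9006 other genes that averaged 3 or more on the log2 CPM scale. These were Garem1 (0.0710), Dact3 (0.0896), Slc48a1 (0.112), Porcn (0.113), Ppp1r13l (0.116) and Cnnm2 (0.116). The members' mean pattern stood at 0.48, 0.46 and 0.74 in negative libraries 1, 2 and 3 and at -0.42, -0.48 and -0.79 in the positive libraries. That pattern holds the difference between fractions on which the members were chosen, so likeness to it is a description and no test. Ppp1r13l was also on the regulator list. For Trp53 the nearest were Pbx2 (0.0355), Aph1a (0.0493) and Txlna (0.0543).

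Markers of other cells were set beside these values. All 4 pericyte markers were higher in the CD34 negative fraction and 3, Mcam, Notch3 and Cspg4, rose with the block, with a summed level of 182 to 226 CPM against 27.2 to 93.5 CPM in the positive libraries. None of the 4 was at 0 in any library. The 5 fibroblast markers summed to 23891 to 39368 CPM in the negative and 25535 to 33585 CPM in the positive libraries, with Dcn and Lum lower in the negative fraction with the block and 1 of the 5 above 0. All 6 epithelial markers were higher in the negative fraction by fitted log2 fold change (0.50 to 1.05), although none passed, and they summed to 52.1 to 151 and 17.4 to 137 CPM. Immune markers summed to 14.2 to 18.3 and 10.3 to 21 CPM, with Ptprc, Cd68, Fcgr1 and Cd163 at 0 in at least 1 library. Endothelial markers summed to 1.71 to 14.4 and 2.12 to 14.8 CPM, with all 3 log2 fold changes above 0, none past the test, and Cdh5 at 0 in at least 1 library. Of the Schwann cell markers, Mbp measured 7.28, 12.6 and 15.1 CPM in the negative and 9.41, 8.63 and 4.23 CPM in the positive libraries, and Sox10 was at 0 in negative library 3. The part of pericyte-like cells or of cycling cells in the members' differences was not tested.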

How the data were processed

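RNA from CD34 negative and CD34 positive CAFs of 3 tumors was sequenced by the authors, who mapped the reads to GRCm38 and used featureCounts to count them by NCBI gene. The deposited values are raw counts, not normalized. The library kit does not mark strand and the handling of reads with several matches was not given in the sources used here, so overlapping genes and close copies are uncertain. Groups and tumor numbers came from the sample titles.

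Genes with low counts were removed (filterByExpr, minimum count 10), TMM factors (trimmed mean of M-values) scaled the libraries, and limma-voom compared the groups with Benjamini-Hochberg adjustment. The study's methods name these steps and no tumor block. The study's list of genes higher in CD34 negative CAFs was far longer than the 3 called higher here without the block. The reason was not tested. The threshold of 0.05, two-sided, was set here, and genes without an official symbol, where the study removed those with no annotation, were kept. The same fit was repeated with tumor as a blocking term. The numbers pair the libraries, since both fractions came from 1 tumor, and their deviations from the group means correlated at 0.373, 0.350 and 0.219 in tumors 1, 2 and 3. The tumor term was tested by limma-voom with group and tumor in the fit. edgeR, DESeq2, limma-trend (prior count 2), DESeq2 size factors, no filter, official symbols only, and leaving out each library and tumor were the alternatives. The test was tried on simulated counts. Versions were limma 3.58.1, DESeq2 1.42.0 and edgeR 4.0.16 in R 4.3.3.

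CPM values use the library size times its TMM factor, and RPKM are these divided by the deposited gene length. Ratios within a tumor are differences of voom log2 CPM. Positions and promoters are those of RefSeq for GRCm38.p6, joined on the NCBI identifier, which placed 14446 of the 14855 tested genes. The members and lists were chosen with earlier results of these data known. Named genes are all members and paralogs, list genes past the threshold without or with the block (at most 12 targets, 6 regulators, and 5 each of mitotic genes and neighbors), Cdkn1a and Cdkn2a, overlapping genes, and the genes nearest in pattern. Timm17a, Shisa4, Mybl2, Foxm1 and the markers were named after their values were seen. Replicates are separate tumors, and depth ran from 16238059 to 86609267 counts. The number of genes with counts did not follow depth. Negative library 3, with 35310817 counts, had counts for 14314 genes, against 16707 in positive library 1, with 16238059 counts. Cdk1 had no count in negative library 3, against 3.77 to 32.8 CPM in the other libraries. The cause was not tested. One marker gene is not reported here.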

Additional observations from a re-analysis of the deposited data

How the results depend on the processing

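The tumor as a replicate block compared the paired libraries and raised the calls from 18 to 1273 over all genes, and from 0 to 10 for the other p53 targets, 5 for the regulators, 2 for the paralogs, 5 for the mitotic genes and 4 for the neighbors. In the same order, edgeR with the block called 575, 4, 3, 1, 2 and 1, and DESeq2 with the block called 1733, 14, 5, 2, 10 and 6. Without the block, DESeq2 called 698, 7, 4, 2, 0 and 1, and edgeR called 9 over all genes and 0 in each list. Blocked fits without tumor 1 called 1134, 9, 4, 3, 4 and 5, those without tumor 2 called 851, 9, 3, 2, 1 and 2, and those without tumor 3 called 2019, 11, 6, 2, 13 and 7. Unblocked fits without 1 library or tumor called 0 to 86 over all genes and 0 to 3 of the other targets. The tumor term, 598 genes, was 167 with edgeR, 1525 with the DESeq2 likelihood ratio test and 410 to 2337 without 1 tumor. Size factors of DESeq2, no filter, official symbols and limma-trend left every list at 0. The causes were not tested.

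No member with separate groups changed sign, and over these settings Ptprv ran from 2.01 to 3.03, Mdm2 from 0.91 to 1.62 and Aen from 0.73 to 1.17. Trp53 ran from -0.01 to 0.12, Mdm4 from -0.02 to 0.43 and Sesn1 from -0.29 to -0.01. In limma-voom Atm was 0.03 without the block and -0.07 with it, and 2 of the 14 mitotic genes were above 0 without positive library 2. Among the paralogs and the genes nearest in pattern, signs turned for the following, each not called in limma-voom without the block. Trp63 was 0.0009 and Ccng2 -0.01 in the blocked fit without tumor 3, and Ccng2 ran from -0.10 to 0.33 without 1 library or tumor. Zmat1 was -0.28 with edgeR, -0.29 with DESeq2, -0.16 with limma-trend, -0.21, -0.17 and -0.18 with the block in limma-voom, edgeR and DESeq2, -0.34 and -0.35 in blocked fits without tumor 2 and tumor 3, and -0.33 to 0.46 without 1 library or tumor. Zmat2 was 0.01 with no filter, 0.05 with edgeR, 0.04 with DESeq2, 0.06 with limma-trend, 0.02, 0.06 and 0.04 with the block in the 3 tools, 0.26 in the blocked fit without tumor 2, and -0.19 to 0.22 without 1 library or tumor. Zmat5 was 0.01 with edgeR, 0.0015 with DESeq2, 0.10 and 0.17 in blocked fits without tumor 1 and tumor 2, and -0.28 to 0.12 without 1 library or tumor. Isg20l2 was -0.0042 with DESeq2 size factors, -0.29 in the blocked fit without tumor 3, and -0.29 to 0.16 without 1 library or tumor. Aph1a was 0.01 and 0.05 in blocked fits without tumor 2 and tumor 3, and Aph1a and Txlna ran from -0.12 to 0.06 and from -0.0029 to 0.13 without 1 library or tumor.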
